A study of Mus musculus with 18 samples.

Results

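Transcripts annotated as targets of nonsense-mediated decay (NMD) were examined in bulk RNA sequencing of mouse CD8+ T cells. The transcripts were the rows of the estimated transcript count table that GENCODE release M21 types as nonsense-mediated decay, in protein-coding genes with a summed count of at least 100 in every library. They numbered 4973 transcripts in 3006 genes, out of 141862 annotated transcripts in the table, of which 7186 carry the NMD type. The transcripts were thus chosen by annotation and by a minimum on the measured gene counts. The NMD genes just inside the minimum had lowest counts of 100 (Pou6f1), 101 (Ap1m2) and 101 (P3h1), and those just outside had 98 (Rtkn2), 99 (Mfsd13a) and 99 (Etv5).

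The 18 libraries came from spleen and lymph nodes of OT-I mice, which carry a transgenic T cell receptor specific for SIINFEKL, a peptide of ovalbumin. The 8 naive libraries were OT-I CD8+ T cells at day 0, with no stimulation. The 8 control libraries were OT-I CD8+ T cells carrying a scrambled sequence, and the 2 knockout libraries were OT-I CD8+ T cells labelled Tra2bKO; both were taken 4 days after stimulation with SIINFEKL together with the costimulating antibodies anti-OX40 and anti-41BB. The labels give neither the age of the mice nor the way the knockout was made. They do not say that libraries of a group came from separate mice, so the p-values below measure the spread between libraries, which may be technical.

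NMD is the surveillance pathway that degrades messenger RNAs whose reading frame ends too early. A stop codon that lies well upstream of an exon junction is recognised because the protein complex left at that junction is not cleared by the first ribosome, and the factors Upf1, Upf2, Upf3b and the Smg proteins then trigger decay. Many genes of splicing factors make such transcripts by including a so-called poison exon or by skipping a coding exon, and TRA2B and other SR proteins are known to lower their own level in this way. In steady-state RNA the share of an NMD transcript therefore reflects both how often it is made and how fast it is lost.

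The sequences below carry the stop codons of the transcripts that the results turn on. Each is read from the GENCODE M21 transcript, 5′ to 3′, from the last 30 bases of the exon before through the coding bases of the exon that ends the reading frame, and the stop codon is in capitals. The first 4 belong to SR proteins and their TRA2 relatives and are shown because their premature stop lies in an extra exon that the reference coding transcript lacks. In GRCm38 the extra exon of Tra2b-206 is chr16:22258986-22259261 on the minus strand, that of Tra2a-202 is chr6:49252803-49253108 on the minus strand, that of Srsf7-203 is chr17:80204622-80205081 on the minus strand, and that of Srsf3-201 is chr17:29039454-29039909 on the plus strand.
Tra2b-206: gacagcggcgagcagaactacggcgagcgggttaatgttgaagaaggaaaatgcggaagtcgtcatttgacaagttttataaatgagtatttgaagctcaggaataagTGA
Tra2a-202: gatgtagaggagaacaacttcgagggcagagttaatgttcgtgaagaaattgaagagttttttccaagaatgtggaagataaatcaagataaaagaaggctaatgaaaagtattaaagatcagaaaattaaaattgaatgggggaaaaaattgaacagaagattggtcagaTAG
Srsf7-203: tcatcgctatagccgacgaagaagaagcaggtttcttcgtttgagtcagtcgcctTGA
Srsf3-201: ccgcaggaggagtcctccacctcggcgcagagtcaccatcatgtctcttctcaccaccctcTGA

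Another set lacks 1 or more exons of the reference coding transcript and ends its reading frame in a later exon. In Clk1-210 and Itgb1-202 the stop codon differs from that of the reference. Hnrnpa1-203 lacks an exon of 159 bases, a multiple of 3, and keeps the stop codon of the reference, with 2 exon junctions after it. The exon shown lies at chr15:103243959-103244028 on the plus strand in Hnrnpa1-203, at chr1:58419667-58419733 on the minus strand in Clk1-210, and at chr8:128713208-128713378 on the plus strand in Itgb1-202.
Hnrnpa1-203: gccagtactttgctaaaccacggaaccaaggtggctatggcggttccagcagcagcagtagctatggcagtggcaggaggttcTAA
Clk1-210: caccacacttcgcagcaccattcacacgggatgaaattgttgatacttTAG
Itgb1-202: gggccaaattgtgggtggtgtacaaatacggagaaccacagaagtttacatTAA

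The next set is shown because these transcripts had large differences between knockout and control libraries. Stk16-216 (chr1:75213576-75213697, plus strand) and Zdhhc3-207 (chr9:123089032-123089156, minus strand) use a changed splice site, and Hikeshi-202 (chr7:89930320-89930460, minus strand) and Prkch-204 (chr12:73594068-73594164, plus strand) include an extra exon.
Stk16-216: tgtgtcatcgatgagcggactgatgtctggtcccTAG
Zdhhc3-207: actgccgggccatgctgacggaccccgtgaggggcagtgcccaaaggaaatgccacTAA
Hikeshi-202: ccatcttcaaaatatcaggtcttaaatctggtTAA
Prkch-204: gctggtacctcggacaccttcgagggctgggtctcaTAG

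The last pair shows extra exons whose share was lower in control than in naive libraries, in Rabgap1l-205 (chr1:160308978-160309171, minus strand) and Rps19-205 (chr7:24886107-24886187, plus strand). The exon of Rabgap1l-205 is the first of a transcript whose start is incomplete in the annotation, so no exon precedes it.
Rabgap1l-205: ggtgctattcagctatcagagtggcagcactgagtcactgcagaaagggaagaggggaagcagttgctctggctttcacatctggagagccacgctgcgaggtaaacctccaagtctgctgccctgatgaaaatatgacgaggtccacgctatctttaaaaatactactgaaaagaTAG
Rps19-205: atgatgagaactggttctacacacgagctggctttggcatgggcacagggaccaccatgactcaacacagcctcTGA

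The annotated stop codons had the layout that defines the class. Of 4971 NMD transcripts with an annotated stop codon and more than 1 exon, 4943 (99.4%) had it at least 50 bases before the last exon junction, with a median distance of 320 bases and quartiles of 159 and 673.5 bases. The stop was TGA in 57.5%, TAA in 22.7% and TAG in 19.8% of them. Each transcript was compared with the reference coding transcript of its gene, which 4956 had. A changed splice site was present in 47.5% of these, a skipped exon in 36.8%, an extra exon in 31.4%, a retained intron in 4.30% and an intron spliced out of a reference exon in 3.29%, and 1 transcript could have several. In 822 transcripts the only difference was a single extra exon, with a median length of 110 bases. The length of 561 of these exons was not a multiple of 3, and in the 261 whose length was a multiple of 3 the exon itself held the stop codon in 249.

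GAA-rich sequence, the RNA motif that TRA2 proteins are known to bind, was dense in both TRA2 poison exons. AGAA was searched on the RNA strand, counting overlapping matches. It occurred 12 times in the 276 bases of the Tra2b-206 exon, or 4.35 per 100 bases, and 13 times in the 306 bases of the Tra2a-202 exon, or 4.25 per 100 bases. Among the 109 extra exons of 200 to 400 bases in tested NMD transcripts, 75.2% held AGAA at least once, the median was 0.50 per 100 bases and the Tra2b-206 exon had the highest value. GAAGAA, which contains AGAA, was found 3 times in the Tra2b-206 exon and 4 times in the Tra2a-202 exon, against 11.9% of these 109 exons with any. The longer extra exons gave 1.09 AGAA per 100 bases in Srsf7-203 (460 bases) and 0 in Srsf3-201 (456 bases).

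Total estimated counts ran from 68249844 to 86932452 in naive, from 73735681 to 93972513 in control, and were 79197461 and 93495846 in knockout libraries. The CD8 T cell markers (Cd3d, Cd3e, Cd3g, Cd8a, Cd8b1 and Trac) were present in every library, with summed levels of 5355 to 6429 CPM (TMM-scaled counts per 1e6 counts) in naive, 3448 to 4278 in control and 3422 to 3932 in knockout libraries. Markers of other cells moved with the groups. The 13 B cell markers summed to 738 to 1200 CPM in naive, 396 to 476 in control and 670 to 835 in knockout libraries, with 8 of 10 tested lower in control than in naive and 1 of 11 higher in knockout than in control. The 8 NK cell markers summed to 136 to 206 CPM in naive, 16.9 to 71.7 in control and 64.8 to 65.5 in knockout libraries, with 8 of 8 lower in control than in naive. For 7 dendritic cell markers the ranges were 70.3 to 159, 19.1 to 37.1 and 39.7 to 51.3 CPM, with 6 of 6 lower in control, and for 8 myeloid markers 25.8 to 101, 14.8 to 37.2 and 38.7 to 62.7 CPM, with 6 of 7 lower. For 8 erythroid and platelet markers they were 2.39 to 41.5, 0.54 to 17.7 and 13.5 to 133 CPM, with 5 of 8 higher in knockout than in control, and for 4 CD4 T cell markers 4.13 to 6.07, 4.42 to 20.8 and 3.77 to 4.71 CPM. Klra8 and Siglech were at 0 in all control libraries, and Ebf1 and Siglech in both knockout libraries. Fewer cells of a type and less RNA per cell cannot be told apart in bulk samples, and the part of other cells in the shares below was not tested.

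The targeted gene, Tra2b, was measured in every library, and its RNA level does not by itself check the label. Tra2b stood at 290 ± 30.02 CPM (SD, n = 8) in naive, 466 ± 60.1 CPM (n = 8) in control, and 361 and 370 CPM in knockout libraries. Its log2 fold change was 0.69 for control against naive (edgeR quasi-likelihood test, adjusted p = 4.15e-07) and -0.34 for knockout against control (adjusted p = 0.0899), so the gene total was not called lower in the knockout libraries. The term knockout is used as the labels give it.

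Tra2b-206 is the most abundant of the Tra2b NMD transcripts, all of which hold the poison exon. Its share of the Tra2b counts ran from 9.06 to 14.5% with a median of 11.8% in naive libraries, from 3.73 to 10.7% with a median of 6.82% in control libraries, and was 1.02% in both knockout libraries. Both knockout libraries lay below every control library, and the naive and control ranges overlapped. The share fell by 5.09 percentage points from naive to control (exact two-sided permutation p = 0.000466 over 12870 splits, limma adjusted p = 0.00335, 0.416 with edgeR diffSpliceDGE) and was 5.85 points lower in knockout than in control libraries. For that second difference the exact permutation p was 0.0222, the smallest that 45 splits allow, and the limma adjusted p was 0.011. Without knockout 1 the limma adjusted p was 0.0622 and without knockout 2 it was 0.054, and edgeR diffSpliceDGE gave 0.0987. The level of the transcript itself was 34.3 ± 3.39 CPM for the naive group, 31.8 ± 10.2 CPM for the control group and 3.74 ± 0.0731 CPM (n = 2) for the knockout group. The other NMD transcripts of the gene, Tra2b-209 with a longer form of the exon and Tra2b-207 with the same exon, reached at most 0.0395% and 0.0553% of the Tra2b counts in any library.

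NMD transcripts made up a small part of the counts of their genes. Of the 4973 transcripts, 607 had no counts in any library, 1603 had a mean under 10 counts, and 2763 passed the minimum mean of 10 counts over all libraries. Of these, 8 were the single transcript of their gene in the table and have no share to test, which left 2755 in 1983 genes. The median of their mean share of the gene was 3.33% for the naive, 2.64% for the control and 2.15% for the knockout group. Means over 8 and over 2 libraries are not alike where shares jump between libraries. The knockout median, and the knockout count of high means that follows, are therefore not to be set against the others. Taken library by library, the median share averaged 2.17% over the naive group, 1.39% over the controls and 1.58% over the 2 knockouts. Shares of 50% or more were reached on average by 99 transcripts in naive, by 90 in control and by 110 in knockout libraries, and 20 were at 50% or more in all 18 libraries. At the other end, 295 stayed under 1% in every library, and 1392 (50.5%) were above 0 in all of them.

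Many estimated shares jumped between libraries of 1 group. From 0 in 1 library to 20% or more in another of the same group, 284 transcripts varied among the 8 naive, 319 among the 8 control and 75 among the 2 knockout libraries. Such a count grows with the number of libraries, so the knockout count is not to be set against the other 2. Lars2-209, from the gene of the mitochondrial leucyl-tRNA synthetase, had the highest mean count of all NMD transcripts, and its share ran from 0 to 94.9% in naive and from 0 to 87.2% in control libraries, and was 0 and 62.7% in the knockout libraries. Rpsa-206, from a ribosomal protein gene and second by mean count, ran from 0.0634 to 73.1% in naive and from 0.0714 to 68.2% in control libraries. Ddx5-208, which retains an intron in the gene of an RNA helicase, was steadier at 57.1 to 66.2% in naive, 51.1 to 60.2% in control and 59.1 and 63.0% in knockout libraries. Differences between groups in such transcripts are to be read against this spread.

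Stimulated control libraries held a lower share of NMD transcripts than naive libraries. Pooled over all their genes, and leaving out Lars2, NMD transcripts took 8.45 to 9.97% of the counts with a median of 9.30% in naive libraries. In control libraries the pooled share ran from 6.36 to 7.07% with a median of 6.90%, and it was 7.77 and 7.28% in the knockout libraries. Every control and knockout library lay below every naive library, and both knockout libraries lay above every control library. With Lars2 included the pooled share was 9.87 ± 1.47% (SD, n = 8) in naive, 7.61 ± 0.827% (n = 8) in control, and 7.64 and 8.22% in knockout libraries, and the ranges of naive and control libraries overlapped. The median share over the tested transcripts was 2.03 to 2.39% in naive, 1.08 to 1.52% in control, and 1.44 and 1.72% in knockout libraries. Retained introns and other non-coding types share these genes' totals, so a change in their counts alters these shares too.

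**Figure D1:**
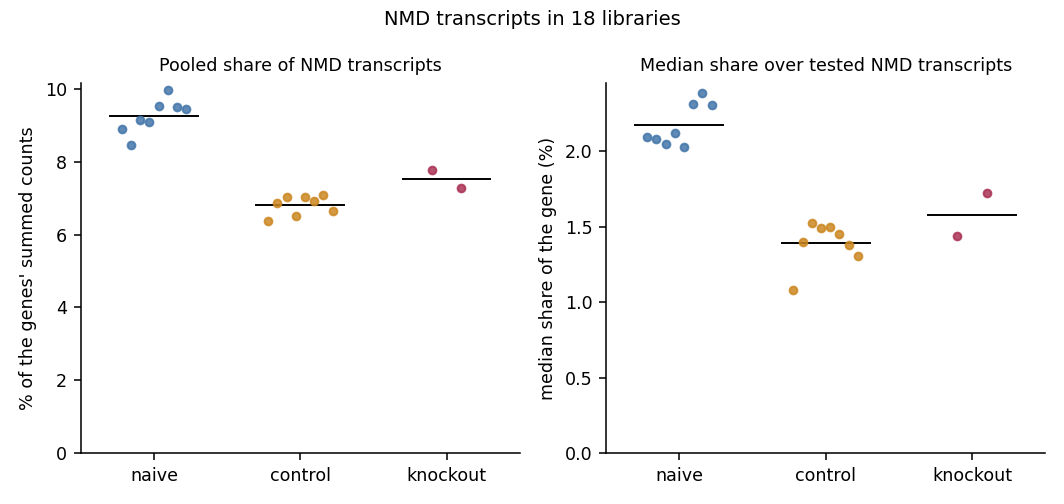
Share of NMD transcripts in each of the 18 libraries, as points, with the group mean as a line. Left, counts of all NMD transcripts but Lars2-209 as a percentage of the summed counts of their genes; right, the median share of the gene over the 2755 tested transcripts, in percent. Naive libraries (8.45 to 9.97% pooled) sit above control (6.36 to 7.07%) and knockout libraries (7.77 and 7.28%).

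Control libraries differ from naive libraries in the stimulation, in the 4 days since it and in the scrambled sequence. These cannot be told apart, and markers of other cells differed between the groups as well. With limma on the log2 ratio of a transcript to the rest of its gene and an adjusted p under 0.05, 39 NMD transcripts had a higher share in control and 323 a lower share, 13.1% of the 2755 tested. Over all 35879 transcripts tested, 25.7% were called, 7.71% higher and 17.9% lower. The share of NMD transcripts called was below the background, and 10.8% of their calls were higher against 30.1% of all calls. Their median difference in log2 ratio was -0.46, against -0.23 for all transcripts. The groups did not overlap for 75 NMD transcripts (2.72%), against 8.84% of all transcripts. Of the 323, 2 were at 0 in all libraries of both groups, so that only the rest of the gene had changed. The 362 calls fell in 348 genes, of which 14 had 2 or more called NMD transcripts.

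The balance of calls differed by transcript type. Retained-intron transcripts had 141 higher and 4267 lower of 9553 tested, and their median difference in log2 ratio was -0.95. Protein-coding transcripts had 2484 higher and 1056 lower of 20471, with a median of 0.17. Among NMD transcripts whose only difference from the reference was a retained intron, 0 were higher and 19 lower of 57 (33.3% lower). Among transcripts with 1 kind of difference the lower calls numbered 79 of 502 (15.7%) for extra exons, 94 of 906 (10.4%) for changed splice sites and 34 of 523 (6.50%) for skipped exons. Higher calls were 6, 13 and 10 in these classes. The differences between types and between these classes were not tested.

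**Figure D2:**
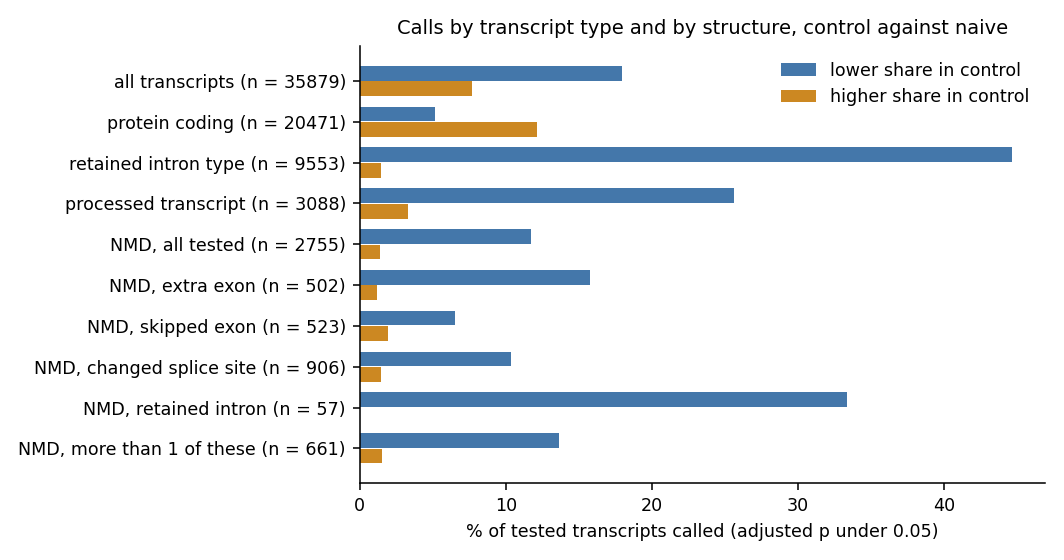
Percentage of tested transcripts called lower (blue) or higher (orange) in control than in naive libraries, by transcript type and, for NMD transcripts, by the single kind of difference from the reference coding transcript. Retained-intron transcripts have 44.7% called lower, NMD transcripts 11.7% and protein-coding transcripts 5.16%.

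Most lower shares came with a lower level of the transcript itself. Of the 323 transcripts with a lower share, 321 had a lower mean CPM in control libraries and 0 a higher one, with a median log2 ratio of -1.32. Among all 2755 tested NMD transcripts, 1748 had a lower mean CPM and 1001 a higher one, with a median log2 ratio of -0.32. The 323 were chosen by their share in these same libraries, so their levels are a description and no separate evidence. The genes of the 323 were higher in 144 cases and lower in 179, with a median log2 ratio of -0.07. Of the 39 with a higher share, 36 had a higher mean CPM, while 19 of their genes were higher and 20 lower.

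Leaving out 1 library at a time gave 36 to 46 higher and 280 to 325 lower NMD transcripts. With a trend on transcript length removed from each library the calls were 103 higher and 211 lower (32.8% higher), with edgeR diffSpliceDGE 39 and 126 (23.6% higher), and with voom and diffSplice 90 and 308 (22.6% higher). Lower calls of NMD transcripts outnumbered higher ones in each of these. Over all transcripts, 48.6% of the calls were higher with the length trend removed, 39.7% with diffSpliceDGE and 44.8% with voom. The calls of single transcripts depended on the model: of 41 transcripts named by rule and called here by limma, edgeR diffSpliceDGE called 10 and voom with diffSplice called 30. Those called by diffSpliceDGE were Habp4-203, Rabgap1l-205, Rpl13a-216, U2af1l4-226, Prkch-204, Snapc3-207, Srsf7-203, Srsf3-201 and Tars-207, which were lower, and Pold1-208, which was higher, so the other named calls given below for control against naive libraries rest on the log2 ratio of a transcript to the rest of its gene and did not pass in diffSpliceDGE.

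SR proteins and TRA2 proteins, which bind exonic enhancers and promote splicing, had 0 higher and 7 lower of 16 tested NMD transcripts, with a median difference of -0.76 in log2 ratio, where 17.9% of all transcripts were lower. In this list edgeR diffSpliceDGE called 2 and voom called 5. Srsf7-203 took 14.9 to 26.0% of its gene (median 23.7%) in naive and 7.13 to 15.3% (median 11.05%) in control libraries, and 11.3 and 12.8% in the knockout libraries. Its log2 ratio fell by 1.26 (SE 0.20, limma adjusted p = 0.000265), with a narrow overlap of the groups. Tra2a-202, the poison exon transcript of the paralogue of Tra2b, took 2.54 to 7.64% in naive and 0.592 to 3.77% in control libraries (adjusted p = 0.00819), and 0.176 and 0.218% in the knockout libraries. Both knockout libraries were below every control library, but that difference was not called (-3.07 in log2 ratio, SE 0.68, adjusted p = 0.114). Srsf3-201 showed the spread within groups: it took 10.9 to 39.9% with a median of 36.1% in naive and 4.28 to 49.3% with a median of 10.8% in control libraries. Its log2 ratio fell by 1.76 (SE 0.59, adjusted p = 0.0391), while control 6, at 49.3%, lay above every naive library. The call of Srsf3-201 was lost without any single naive library other than naive 7, and without control 3, 4, 5, 7 or 8, with adjusted p from 0.0527 to 0.0742.

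The kinases that phosphorylate SR proteins had 0 higher and 1 lower of 11 tested, where 17.9% of all transcripts were lower. That one was Clk1-210, which skips an exon of 91 bases in the gene of the kinase Clk1. It took 21.5 to 34.3% of Clk1 counts in naive, 16.1 to 23.1% in control, and 25.01 and 26.9% in knockout libraries. The fall from naive to control was 0.57 in log2 ratio (SE 0.16, adjusted p = 0.0176), and the whole gene stood at 307 ± 31.8 CPM in naive and 124 ± 20.4 CPM in control libraries. Prpf4b-208 (27.7 ± 10.1% and 19.2 ± 6.57%, adjusted p = 0.199) and Clk4-204 (3.38 ± 0.507% and 2.76 ± 1.05%, adjusted p = 0.281) were not called.

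The hnRNPs and other splicing regulators had 0 higher and 12 lower of 62, with a median difference of -0.42. Over all transcripts tested 17.9% were lower, near the share in this list, and the median over all NMD transcripts was -0.46. In this list edgeR diffSpliceDGE called 1 and voom called 9. Hnrnpa1-203, from the gene of a splicing repressor, took 8.62 to 16.8% of its gene (median 11.4%) in naive and 3.26 to 4.41% (median 3.80%) in control libraries. The groups did not overlap, and the log2 ratio fell by 1.75 (SE 0.16, limma adjusted p = 4.1e-06). Here the transcript was near its former level, at 25.5 ± 6.94 CPM in naive and 20.5 ± 2.59 CPM in control libraries, while the gene stood at 214 ± 34.1 and 545 ± 71.8 CPM. Khdrbs1-202, from the gene of the RNA-binding protein Sam68, took 8.71 to 15.4% in naive and 2.95 to 6.72% in control libraries, with no overlap (adjusted p = 0.000329). Ddx5-208 fell by 6.63 percentage points between the ranges given above (adjusted p = 0.0122).

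The core spliceosome list had 0 higher and 6 lower of 29, with 2 called by edgeR diffSpliceDGE and 6 by voom. The lower share in this list was likewise near the 17.9% over all transcripts. U2af1l4-226, which retains an intron in the gene of a relative of the small U2AF subunit, took 15.9 to 34.3% in naive and 2.33 to 7.30% in control libraries, with no overlap. Its log2 ratio fell by 2.81 (SE 0.29, limma adjusted p = 1.05e-05), while U2af1l4 itself stood at 12.9 ± 1.50 CPM in naive and 33.1 ± 3.05 CPM in control libraries. Prpf31-203, from a gene of the U4/U6 snRNP, went from 1.46 to 2.35% in naive to 0.326 to 1.17% in control libraries (adjusted p = 0.00236). Snrpb-203, the poison exon transcript of the gene for the Sm protein B, was not called (2.59 ± 1.94% and 3.97 ± 1.13%, adjusted p = 0.14).

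Among ribosomal proteins and translation factors 1 of 34 was higher and 3 were lower, with 5 called by edgeR diffSpliceDGE and 4 by voom. Over all transcripts 7.71% were higher and 17.9% lower. Rps19-205, whose extra exon is shown above, took 16.4 to 20.2% of the gene in naive, 7.96 to 9.50% in control, and 8.21 and 9.66% in knockout libraries. Its naive and control ranges did not overlap, and its log2 ratio fell by 1.20 (SE 0.10, adjusted p = 1.51e-06). Rpl13a-216 took 10.4 to 31.6% in naive and 0.691 to 7.04% in control libraries, a fall of 3.67 in log2 ratio (SE 0.46, adjusted p = 4.53e-05). Rpl12-201 went from 55.8 to 67.5% in naive to 44.2 to 56.0% in control libraries (adjusted p = 0.00284). Ribosomal protein genes have many processed copies in the genome, so reads of these transcripts may have been split among them.

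The other lists gave few calls each, where 7.71% of all transcripts were higher and 17.9% lower. In the T cell, cell cycle and metabolic lists edgeR diffSpliceDGE called 2, 1 and 2 transcripts and voom 6, 6 and 5, against 4, 6 and 4 by limma. T cell receptor and surface genes had 0 higher and 4 lower of 19, among them Dgka-203 (26.1 ± 6.73% and 18.1 ± 3.16%, limma adjusted p = 0.0244) and Grap2-204 (2.66 to 8.78% and 0.80 to 5.80%, adjusted p = 0.0327). The call of Grap2-204, from the gene of the adaptor Gads, was lost without naive 5, 6, 7 or 8 or control 6, 7 or 8, with adjusted p from 0.0589 to 0.0634. Cell cycle and DNA repair genes had 1 higher and 5 lower of 39. The higher one was Pold1-208, from the gene of the catalytic subunit of DNA polymerase delta, at 0 to 11.1% in naive and 53.3 to 77.3% in control libraries other than control 1, which was at 3.75% (adjusted p = 0.00327). Cdk10-206 was lower (7.99 ± 1.37% and 3.66 ± 2.77%, adjusted p = 0.00896). Mitochondrial and metabolic enzymes had 0 higher and 4 lower of 27, with Tars-207, from the gene of the threonyl-tRNA synthetase, at 13.2 ± 7.69% and 2.64 ± 4.37% (adjusted p = 0.0116).

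NMD and exon junction factors themselves were listed as the machinery of the pathway. Of their 4 tested NMD transcripts limma called 0 in control against naive libraries (0 at an unadjusted p under 0.05, 1 by edgeR diffSpliceDGE, 0 by voom) and 0 in knockout against control libraries (0 by each of these). At the level of the whole gene, edgeR called 9 of 23 higher and 5 lower in control than in naive libraries, where 71.5% of 17078 genes were called, 32.5% higher and 39% lower. The exon junction genes Eif4a3 (log2 fold change 0.67, adjusted p = 2.94e-09), Magoh (0.76, adjusted p = 9.07e-08), Magohb (1.13, adjusted p = 1.75e-08) and Rbm8a (0.62, adjusted p = 3.49e-08) were higher. The kinase gene Smg1 (-1.18, adjusted p = 2.87e-11) and Upf2 (-0.42, adjusted p = 5.59e-05) were lower. Their part in the shares was not tested.

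Among called transcripts outside the lists with a mean share of at least 5% and no overlap between naive and control libraries, the largest falls in share were the following. Rabgap1l-205, from the gene of a Rab GTPase-activating protein, took 26.8 to 31.6% in naive, 6.91 to 10.6% in control, and 7.59 and 8.40% in knockout libraries. The gap between naive and control libraries exceeded the range of either group, and the log2 ratio fell by 2.17 (SE 0.14, limma adjusted p = 2.39e-07). Habp4-203 and Ccdc174-202 both retain an intron. Habp4-203 went from 23.3 to 52.4% in naive to 0 to 16.2% in control libraries (adjusted p = 0.0041), and Ccdc174-202 from 24.5 to 43.4% to 4.18 to 24.1% (adjusted p = 0.000146). Rbmx-205, from the gene of an X-linked RNA-binding protein that partners TRA2 proteins, went from 36.7 to 45.5% to 19.2 to 29.4% (adjusted p = 4.48e-05). Mpg-202, from the gene of a DNA repair glycosylase, went from 27.2 to 35.5% to 7.66 to 20.7% (adjusted p = 9.88e-05), and Hrh2-203, from the gene of a histamine receptor, from 30.3 to 40.0% to 9.26 to 24.6% (adjusted p = 0.00128). Called falls with overlapping groups could be larger in the mean: Prkch-204 went from 48.6 ± 37.97% to 3.01 ± 1.62% (adjusted p = 0.0162), Adgrg5-202 from 79.8 ± 4.74% to 35.98 ± 27.6% (adjusted p = 0.0101) and Snapc3-207 from 31.8 ± 14.3% to 2.20 ± 4.16% (adjusted p = 0.000237).

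Under the same limits on share and overlap, the 8 largest rises in share were the following, and edgeR diffSpliceDGE called 0 of these 8. The rise of Pold1-208 given above, from 4.07 ± 4.73% to 62.0 ± 24.8%, was larger, but control 1 lay in the naive range. Cd244a-203, from the gene of the lymphocyte receptor 2B4, took 32.3 to 45.3% in naive and 54.0 to 77.3% in control libraries, and 32.5 and 39.4% in the knockout libraries. The naive and control groups did not overlap (1.71 in log2 ratio, SE 0.25, limma adjusted p = 0.000131, 0.812 with edgeR diffSpliceDGE), and the knockout values lay in the naive range. N4bp2l1-202 rose from 9.99 to 19.99% in naive to 22.8 to 46.2% in control libraries (adjusted p = 0.000168), while its gene went from 63.2 ± 10.2 to 25.4 ± 2.42 CPM. Stx3-201 rose from 52.1 to 71.3% to 74.0 to 88.3% (adjusted p = 0.00125) and Zfp809-203 from 9.55 to 16.4% to 16.8 to 35.1% (adjusted p = 0.00246). Dnajc15-201, Rbm7-204, Ndufa7-202 and Tyms-204 rose by 10.6, 9.07, 6.69 and 5.22 percentage points, with limma adjusted p of 0.00141, 0.0028, 0.00687 and 0.0259. Without naive 7 the adjusted p of Tyms-204, from the gene of thymidylate synthase, was 0.0516.

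**Figure D3:**
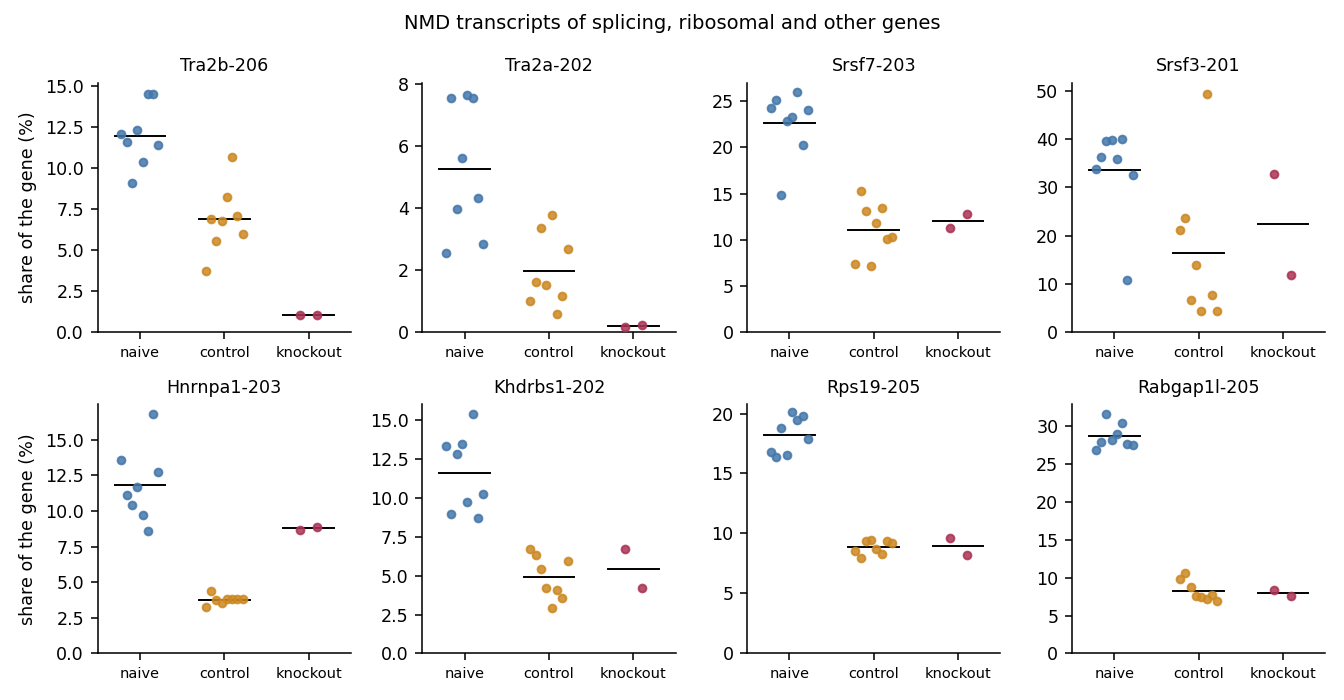
Share of the gene (percent) in each library for 8 NMD transcripts, with group means as lines. Hnrnpa1-203, Khdrbs1-202, Rps19-205 and Rabgap1l-205 do not overlap between naive and control libraries, whereas Srsf3-201 has 1 control library at 49.3%, above all naive libraries.

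Knockout against control libraries compares the stimulated libraries labelled Tra2bKO with those carrying the scrambled sequence. Of 2755 NMD transcripts, 13 had a higher and 9 a lower share in the knockout libraries (0.80%), against 0.479% of all transcripts tested (0.24% in each direction). At an unadjusted p under 0.05 the limma numbers were 297 of 2755 NMD transcripts and 3670 of all 35879 transcripts, which are near-equal shares. The knockout and control libraries did not overlap for 232 NMD transcripts (8.42%), against 9.69% of all transcripts, so this share was near the background. The median difference in log2 ratio was 0.18 for NMD transcripts and 0.05 for all. By structure, 7 of 523 with a skipped exon were higher and 1 was lower. Extra exons had 2 higher and 2 lower of 502, and changed splice sites 3 and 4 of 906. The 7 include Cdc20-203 and Ergic2-201, which passed the minimum count only through the knockout libraries and are no test of a difference. The differences between these classes were not tested. With only 2 knockout libraries these counts moved with a library and with the model. They were 24 and 17 without knockout 1, 20 and 30 without knockout 2, 38 and 13 with edgeR diffSpliceDGE (74.5% higher, against 59.1%), and 108 and 31 with voom and diffSplice (77.7% higher). Over all transcripts, 50% of the calls were higher in the main fit, 56.8% with diffSpliceDGE and 58.5% with voom. The NMD transcripts had 59.1, 74.5 and 77.7% in the same 3 fits. The labels name no batch, so a batch shared by both knockout libraries and the knockout cannot be told apart.

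**Figure D4:**
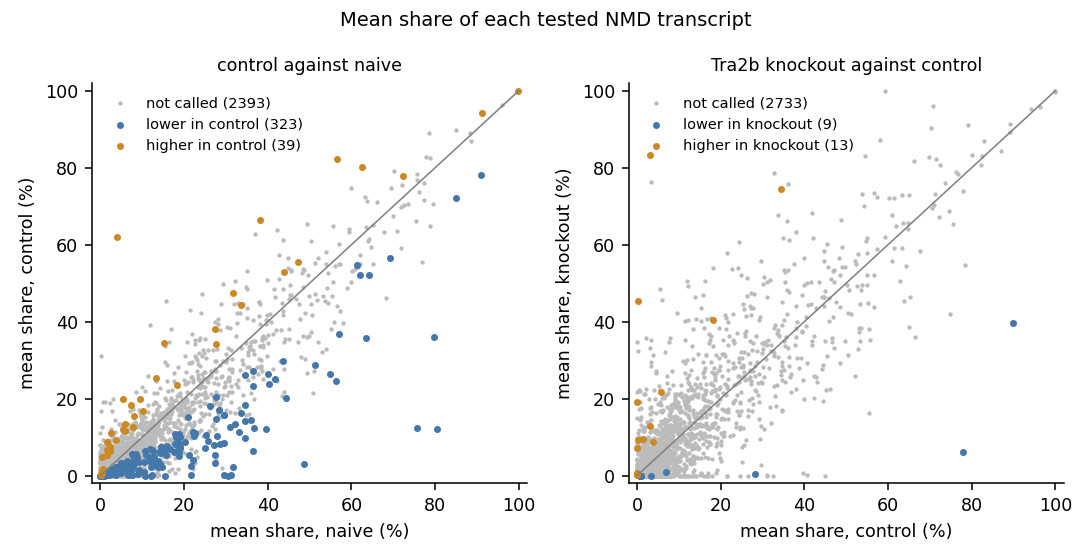
Mean share of the gene for each of the 2755 tested NMD transcripts, in percent, for naive and control libraries (left) and for control and knockout libraries (right), with the line of equal shares. On the left 323 called transcripts are lower and 39 higher in control libraries; on the right 9 are lower and 13 higher in knockout libraries.

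Of the 22 called transcripts, 9 were at 0 in every library of 1 group. Ppia-201, from the gene of cyclophilin A, held 6056 to 8768 counts in naive and 7468 to 14195 counts in control libraries and 0 in both knockout libraries, a share of 3.44 ± 0.65% in control libraries. Ergic2-201, from the gene of a protein of the early secretory pathway, was the reverse, with 0 counts in all naive and control libraries and shares of 18.6 and 19.6% in the knockout libraries. These 2 were singled out after their values were seen, and since each passed the minimum count through the libraries where it was present, no test is given for them. Of the 22 calls, 6 had a mean under 10 counts in control and 5 in knockout libraries. In 3 of the calls the mean was under 10 counts in naive and control libraries, so these passed the minimum only through the knockout libraries. These 3, Ergic2-201 among them, are no test of a difference. Cyclophilin A has many processed copies in the genome, so the count of Ppia-201 may depend on how reads were assigned among them.

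The 4 falls that the naming rule chose were Stk16-216, Naa60-201, Hikeshi-202 and Tra2b-206. Stk16-216, from the gene of a membrane-associated protein kinase, took 70.1 to 75.6% of its gene (median 71.8%) in naive, 73.8 to 84.1% (median 77.4%) in control, and 5.11 and 7.0% in knockout libraries. The 2 knockout libraries lay far below all others, while Stk16 itself stood at 81.9 ± 5.60 CPM in the control and 67.7 ± 6.30 CPM in the knockout group. The log2 ratio fell by 5.80 (SE 0.28, limma adjusted p = 5.83e-06). Hikeshi-202, from the gene of the carrier that brings Hsp70 into the nucleus, took 24.7 to 33.1% (median 28.5%) in control and 0.325 and 0.685% in knockout libraries (-6.35 in log2 ratio, SE 0.32, adjusted p = 7.69e-06). Its extra exon of 141 bases holds 3 AGAA, or 2.13 per 100 bases, where the median over 914 extra exons of at least 30 bases was 0.57 and 56.1% held AGAA. In naive libraries it fell into separate levels, with 5 libraries at 26.7 to 35.1% and 3 at 0.284 to 1.68%, so low values also occurred outside the knockout group. Naa60-201, from the gene of an N-terminal acetyltransferase, took 82.7 to 93.4% in control and 23.7 and 55.5% in knockout libraries (-3.89 in log2 ratio, SE 0.52, adjusted p = 0.0105, 0.0519 without knockout 1 and 0.754 with edgeR diffSpliceDGE). One naive library, naive 8, was at 52.7%, within the knockout range.

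The 6 named rises were Prkch-204, Cep41-206, Zdhhc3-207, Dgka-203, Itgb1-202 and Cmas-203. Zdhhc3-207, from the gene of a palmitoyltransferase, took 24.96 to 32.2% (median 27.1%) in naive, 32.2 to 36.8% (median 34.2%) in control, and 73.5 and 75.4% in knockout libraries. Both knockout libraries were above every other library, and the log2 ratio rose by 2.48 (SE 0.20, limma adjusted p = 0.000358, 1 with edgeR diffSpliceDGE). Itgb1-202, from the gene of the beta-1 integrin chain, lacks an exon of 223 bases with 7 AGAA matches, or 3.14 per 100 bases, where the median over 75 skipped exons of 200 to 400 bases was 0.61 and 77.3% held AGAA. It took 3.80 to 11.2% (median 5.46%) in naive, 3.52 to 7.51% (median 5.86%) in control, and 19.8 and 23.7% in knockout libraries. The log2 ratio rose by 2.23 (SE 0.29, adjusted p = 0.00982, 0.0723 without knockout 1), and the transcript stood at 111 ± 35.6 CPM in the control and 284 ± 6.04 CPM in the knockout group.

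Cmas-203, from the gene of the enzyme that activates sialic acid, took 2.31 to 4.16% in control and 12.4 and 13.6% in knockout libraries (2.20 in log2 ratio, SE 0.34, limma adjusted p = 0.0246). It lacks an exon of 143 bases with 3 AGAA matches, or 2.098 per 100 bases, and an exon of 134 bases with 1, or 0.75 per 100 bases, where the median over 1050 skipped exons of at least 30 bases was 0.71 and 57.3% held AGAA. Its adjusted p was 0.0925 without knockout 1, 0.111 without knockout 2 and 0.845 with edgeR diffSpliceDGE. Dgka-203, from the gene of the diacylglycerol kinase that dampens T cell receptor signals, took 14.1 to 23.2% in control and 37.5 and 43.3% in knockout libraries (1.64 in log2 ratio, SE 0.26, adjusted p = 0.0288). The exon of 89 bases that it lacks holds 0 AGAA, and so does the exon of 109 bases that Ergic2-201 lacks. That call was lost when control 4, 5, 7 or 8 (adjusted p = 0.0539 to 0.0603), knockout 1 (0.181) or knockout 2 (0.0632) was left out and with edgeR diffSpliceDGE (0.456), and naive 6, at 41.1%, lay in the knockout range.

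Prkch-204 and Cep41-206 also jumped within a group. Their extra exons, of 97 and 133 bases, hold 0 AGAA. Prkch-204, from the gene of protein kinase C eta, took 0.183 to 5.13% (median 2.94%) in control and 82.0 and 84.6% in knockout libraries (7.75 in log2 ratio, SE 1.07, limma adjusted p = 0.0139, 0.0842 without knockout 1 and 0.0609 without knockout 2). In naive libraries it was at 2.62 to 3.07% in 3 and at 70.7 to 78.8% in 5. Cep41-206, from the gene of a centrosomal protein, was at 0 in 7 control libraries and 1.69% in the other, and at 42.5 and 48.2% in the knockout libraries (adjusted p = 0.00698). Naive 7 held 29.9%, and the other naive libraries held at most 0.584%.

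**Figure D5:**
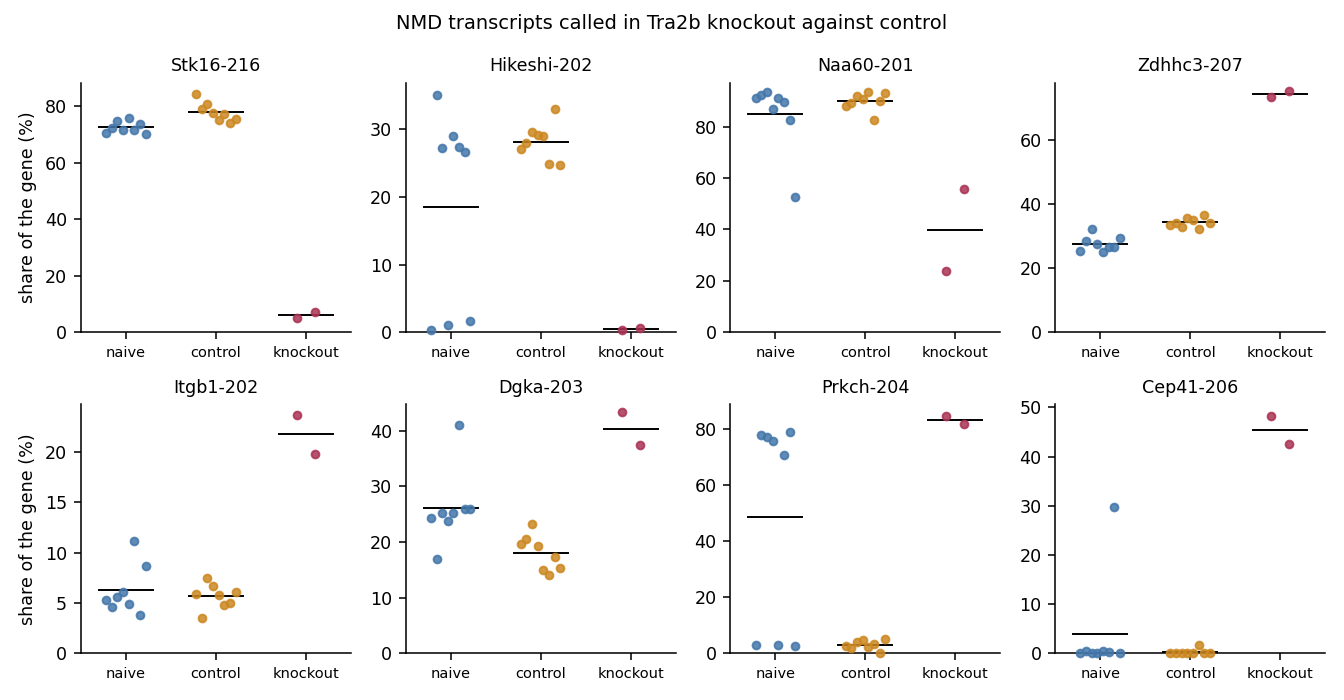
Share of the gene (percent) in each library for 8 NMD transcripts called between knockout and control libraries, with group means as lines. Stk16-216, Zdhhc3-207 and Itgb1-202 separate the knockout libraries from all others, whereas Hikeshi-202 and Prkch-204 form 2 levels within the naive group.

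By gene list, the knockout libraries had 0 higher and 1 lower of 16 NMD transcripts of SR and TRA2 proteins (Tra2b-206), 1 higher of 62 for hnRNPs and other regulators, 2 higher of 19 for T cell genes (Dgka-203 and Itgb1-202) and 1 higher of 39 for cell cycle genes. Over all 35879 transcripts limma called 0.24% higher and 0.24% lower, and 3670 had an unadjusted p under 0.05. The cell cycle transcript, Cdc20-203, had 0 counts in all naive and control libraries and 95 and 107 in knockout libraries. It passed the minimum count only through the knockout libraries, so its call is no test. Limma made 0 calls among 11 SR protein kinases, 29 core spliceosome, 34 ribosomal and 27 metabolic transcripts. At an unadjusted p under 0.05 these lists had 1, 2, 1 and 0, edgeR diffSpliceDGE called 0, 1, 1 and 1, and voom called 1, 2, 0 and 2. Hnrnpa1-203 took 3.26 to 4.41% in control and 8.70 and 8.89% in knockout libraries, without overlap (5.01 percentage points higher, adjusted p = 0.0441). Each time 1 library was left out the call was lost, with adjusted p from 0.0562 to 0.16, and it was lost with edgeR diffSpliceDGE (1) and voom (0.563). The knockout values lay in the naive range of 8.62 to 16.8%, and Hnrnpa1 itself stood at 314 ± 6.83 CPM in knockout against 545 ± 71.8 CPM in control libraries. Rbm39-225, which includes a poison exon in the gene of a splicing regulator, took 2.83 to 7.27% in control and 2.08 and 2.37% in knockout libraries (adjusted p = 0.25), and Tardbp-230, from the gene of TDP-43, took 5.70 to 18.7% and then 4.04 and 4.22% (adjusted p = 0.274). Neither was called. The NMD factors that edgeR called included Smg6 (log2 fold change 0.64, adjusted p = 0.0308), which was higher, and Upf3b (-0.43, adjusted p = 0.00744) and Smg9 (-0.37, adjusted p = 0.0222), which were lower, where 14.9% of all genes were called, 7.62% higher and 7.24% lower.

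Knockout against naive libraries combines the stimulation, the 4 days since it and the knockout, which cannot be told apart. Of the 2755 transcripts 35 were higher and 160 lower (7.08%), against 11.8% of all transcripts (3.63% higher and 8.16% lower), and 377 (13.7%) did not overlap, against 22.6%. The median difference in log2 ratio was -0.28 for NMD transcripts and -0.20 for all. Skipped exons were called higher in 18 and lower in 20 of 523, extra exons in 5 and 43 of 502, and retained introns in 0 and 11 of 57. Of these calls, 3 were of transcripts at 0 in every library of both groups. The split of the NMD calls shifted from 17.9% higher to 32.4% (45 higher and 94 lower) on the arcsine scale and to 51.9% (121 and 112) with voom and diffSplice. The predominance of lower calls thus did not hold in the last of these. Over all transcripts the calls shifted likewise, from 30.8% higher to 39.5% on the arcsine scale and 53.4% with voom. This comparison shares its libraries with the other comparisons and is no separate evidence for them.

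The transcripts named by the rule repeated some of those above. Stk16-216 (-66.4 percentage points, limma adjusted p = 1.24e-06), Zdhhc3-207 (46.8 points, adjusted p = 6.79e-05) and Tra2b-206 (-10.9 points, adjusted p = 5.27e-05) were called against naive libraries too. Zfp938-202, from a zinc finger gene, took 15.2 to 42.7% in naive, 17.9 to 62.2% in control, and 78.0 and 79.5% in knockout libraries (adjusted p = 0.00518). Both knockout libraries lay above all others. Of 34 transcripts named by rule and called in this comparison by limma, edgeR diffSpliceDGE called 7, among them Stk16-216, Tra2b-206 and H2-Eb1-205, and voom called 24. Guf1-205, from the gene of a mitochondrial translation factor, took 5.65 to 12.2% in naive and 22.2 and 29.6% in knockout libraries (adjusted p = 0.00894, 0.0766 without knockout 1).

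Several falls against naive libraries were in genes whose total was far lower after stimulation. Adgrg5-202, from the gene of an adhesion receptor, took 70.3 to 84.8% in naive and 21.3 and 45.3% in knockout libraries (limma adjusted p = 0.00319), while Adgrg5 went from 241 ± 36.6 to 17.3 ± 0.21 CPM. H2-Eb1-205, from an MHC class II gene that B cells and dendritic cells express, took 26.6 to 47.2% in naive libraries and was at 0 in both knockout libraries (adjusted p = 3.82e-06), while H2-Eb1 went from 262 ± 74.0 to 3.58 ± 0.386 CPM. The summed dendritic cell markers were lower in both knockout libraries than in every naive library, whereas the summed B cell markers overlapped, at 738 to 1200 CPM in naive and 670 to 835 CPM in knockout libraries, and their part in the result was not tested. Ccdc171-203 was at 23.9 to 79.7% in naive, at 0 in both knockout libraries and from 0 to 94.0% in control libraries (adjusted p = 0.000382). Stoml1-206, Lrrc45-202, Snapc3-207 and Hps5-207 were lower by 40.3, 33.0, 31.1 and 27.9 points, with limma adjusted p of 0.0132, 0.0345, 0.0072 and 0.00759. Without knockout 1 these were 0.111, 0.283, 0.0677 and 0.0765, and Lrrc45-202 was also lost without naive 1, 3, 4, 7 or 8 (0.0532 to 0.0578). Tex9-207, Pcnp-205, Vti1b-203, Cep41-206 and Stx3-201 were higher with adjusted p between 0.0398 and 0.048. Each of these 5 calls was kept in 5 to 7 of 21 alternatives and was lost without knockout 2. The alternatives that lost them include the replicate block, which gave 0 calls in this comparison.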

How the data were processed

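RNA was isolated with the miRNeasy Micro kit and libraries were made from polyadenylated RNA with the SMARTer Ultra-low V4 kit, per the labels' protocols. The deposited tables hold estimated counts per transcript and per gene as whole numbers. Per the submitters' processing notes, the authors' tools included StringTie 2.1.0, DESeq2 1.30.1 under R 4.0.5, SAMtools 1.9 and STAR 2.7.1a, with the builds mm10 and mm39, whose roles are not given in the sources used here. Transcript types, structures and sequences came from GENCODE M21. The table also holds 26248 transcript rows with a bare number for a name (0.0513 to 0.132% of the counts) and 97 spike-in rows with 0 counts, which were left out.

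The share of a transcript is its count over the summed transcript counts of its gene. Estimated counts of isoforms depend on how reads shared between isoforms were assigned; how this step affects the shares was not tested. For each comparison log2((transcript + 0.5) / (rest of gene + 0.5)) was tested with limma 3.58.1 (variance trend on the log2 mean count, robust) over all 35879 transcripts with a mean count of at least 10, and Benjamini-Hochberg adjusted p under 0.05 was called. Gene levels were tested with edgeR 4.0.16 (quasi-likelihood, TMM). CPM values are TMM-scaled. Only the 2 groups compared entered each fit. Both tests were tested on simulated data. Alternatives were another added count, the arcsine scale, other filters, edgeR diffSpliceDGE, voom with diffSplice, 1 fit over all groups, a replicate block, another denominator, removal of a length trend and leaving out libraries; DESeq2 1.42.0 served for the Tra2b gene.

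Named transcripts were the 8 largest rises and 8 largest falls per comparison among called transcripts with a mean share of at least 5% and groups that did not overlap, all Tra2b NMD transcripts, and up to 3 per gene list with the smallest p for each of 2 comparisons (mean share at least 1%). Transcripts of predicted genes were not named. A gene-level result among the NMD factors is not reported here. The members, gene lists and tests were chosen with earlier results of these data known. Depth was 68249844 to 93972513 counts per library.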

Additional observations from a re-analysis of the deposited data

Results flagged for a closer look

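Within each group of 8 libraries, the highest and lowest shares of the 77 named transcripts were compared with the rest by Dixon's test, in 154 groups, and 21 values stood apart; chance alone sets apart about 1 group in 20.

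Among SR protein and Tra2b transcripts, Srsf3-201 was lowest in naive 7 at 10.9% (others 32.6 to 39.9%) and highest in control 6 at 49.3% (others 4.28 to 23.5%). Tra2b-209 was highest in control 2 at 0.0199%. Tra2b-207 was at 0.0383% in naive 2 and 0.0553% in control 8 and at 0 in the other libraries of those groups.

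Among transcripts that differed between knockout and control libraries, Cep41-206 was at 29.9% in naive 7 and 1.69% in control 6. Dgka-203 was highest in naive 6 at 41.1% (others 17.0 to 25.9%), and Naa60-201 was lowest in naive 8 at 52.7% (others 82.7 to 93.4%).

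Among the other transcripts, Snapc3-207 was highest in control 5 at 12.4% (others at most 1.65%). Tyms-204 was highest in control 8 at 32.7% (others 21.04 to 24.6%), and Rpl13a-216 in control 5 at 7.04% (others 0.691 to 3.62%). Pold1-208 was lowest in control 1 at 3.75% (others 53.3 to 77.3%). Magohb-202 was at 4.20% in naive 2 and 5.57% in control 6. Themis-204 was at 13.3% in naive 1 (others 2.73 to 5.41%). Cdk5rap2-201 was at 20.9% in naive 6 and 24.8% in control 4. Ndufs4-204 was at 6.93% in naive 2 and 1.86% in control 6. Ndufa10-207 was at 3.50% in control 5 and at 0 in the other control libraries.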

How the results depend on the processing

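For control against naive libraries, where 39 NMD transcripts were higher and 323 lower, the higher count was 90 with no filter on transcript counts, 90 with voom and diffSplice, 14 with only protein-coding and NMD transcripts in the denominator and 103 with the length trend removed. The lower count was 126 and 127 with diffSpliceDGE (TMM and RLE), 205 with the other denominator and 211 with the length trend removed. Leaving out 1 library gave 36 to 46 and 280 to 325. For knockout against control, where the counts were 13 and 9, the higher count was 32 on the arcsine scale, 28 with no filter, 38 with either diffSpliceDGE scaling, 108 with voom and 23 in 1 fit over all groups, and the lower count was 31 with voom and 20 in 1 fit. Leaving out 1 library gave 10 to 24 higher and 8 to 30 lower. For knockout against naive, with 35 and 160, the higher count was 61 with no filter, 121 with voom and 13 with the other denominator, and the lower count was 94 on the arcsine scale, 52 with either diffSpliceDGE scaling and 67 with the other denominator. Leaving out 1 library gave 24 to 29 and 109 to 156. The cause of these shifts was not tested. The called rise of Stk16-216 from naive to control libraries turned to -0.13 in log2 ratio (limma adjusted p = 0.736) with the other denominator. Among named transcripts no other direction reversed.

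Whether the replicate numbers pair the libraries could not be decided from the shares. Correlations of same-numbered deviations ran from -0.0101 to 0.0242 for control and naive libraries, and 2 of 8 correlated best with their own number. Those of other numbers ran from -0.0263 to 0.0236. With every value this near 0 the correlations can show neither a pairing nor its absence. With the number as a replicate block, 35 NMD transcripts were higher and 263 lower in control against naive, and both knockout comparisons gave 0 higher and 0 lower. In the knockout comparisons only 2 of the numbers occur in both groups. That fit leaves almost nothing to measure the spread with, so its 0 calls say little about the results.

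With 2 knockout libraries, a fit without 1 of them assumes that the remaining library varies like the controls.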
